A study of Mus musculus with 3 samples.

Results

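The genes Whdc1, Tmem63b, Centg1, Zbtb1, Arcn1, Bola2 and Fastk carried some of the highest promoter ratios of PRDM2-precipitated over input DNA in arrested mouse myoblasts. They were chosen by the PRDM2 promoter means of both arrays, with input DNA above background, and are 7 of the 16079 gene names measured. They hold 44 of the 237203 probes outside the controls. Since the PRDM2 arrays chose them, their PRDM2 values are given here as a description and are not tested. The H3K9me2 array did not enter the choice, but it is 1 array and allows no test either.

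The groups were PRDM2 immunoprecipitate on 2 arrays, labelled replicates 1 and 2, and H3K9me2 immunoprecipitate on 1 array, each hybridised with its own input DNA. All came from C2C12, an established line of mouse myoblasts, held in 2% methylcellulose, where cells deprived of a surface stop dividing in G0. The cells were fixed with 1% formaldehyde, quenched with 0.125 M glycine and sonicated, per the labels' protocols. Precipitated DNA carried Cy5 and input DNA carried Cy3 on all 3 arrays, so a dye effect cannot be told apart from the precipitation. The labels describe neither the antibodies nor separate cultures, so the SD of the 2 PRDM2 arrays may be technical. A control antibody and dividing cells were not analysed here. Precipitated DNA was well above background at 71.2% to 78.9% of probes and input DNA at 92.8% to 99.0%. With 3 arrays in all, every value rests on few measurements.

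PRDM2, also known as RIZ, is a zinc finger protein of the PRDM family whose PR domain is related to the SET domains of histone methyltransferases. It is known to methylate lysine 9 of histone H3 and to act as a repressor and tumour suppressor. H3K9me2, the dimethylated form of that lysine, is a mark known from silent chromatin. Arrested myoblasts keep the ability to divide and to form muscle, and repressive marks are studied in them for how genes of both programmes are held silent. Promoter arrays read where precipitated fragments, longer than a probe, came from, and a probe reports its neighbourhood rather than a single site.

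The 7 genes have unlike products. Whdc1, now Whamm, activates the Arp2/3 complex at membranes and microtubules, and Tmem63b encodes a channel opened by membrane tension. Centg1, now Agap2, is a GTPase-activating protein for Arf that also binds phosphoinositide 3-kinase. Zbtb1 is a repressor with a BTB domain and zinc fingers that lymphocyte development needs. Arcn1 is the delta subunit of the COPI coat of Golgi vesicles. Bola2 works with the glutaredoxin Glrx3 in handling iron-sulfur clusters in the cytosol, and Fastk is the founding member of a family of RNA-binding proteins, most of which act in mitochondria.

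The probes printed here hold the highest PRDM2 mean of their gene, or contrast with that probe in signal or base composition. Letters are those of the deposited array files, 5′ to 3′, with every CpG in capitals. Coordinates are those of the array design, for which no genome build was stated in the sources used here. Of the 18243 probes of the array found inside a RefSeq promoter, 99.7% read along the plus strand. In the order printed, they lie at chr7:81445112-81445156, chr7:81445541-81445599, chr7:81446170-81446229, chr17:45149619-45149667, chr10:126481858-126481902, chr10:126483124-126483168, chr12:77289695-77289739, chr12:77290511-77290555, chr9:44518311-44518359, chr9:44518520-44518564, chr7:126487676-126487721 and chr5:23955263-23955307. Whether a probe lay in an exon or an intron was not analysed here.
Whdc1 probe 3: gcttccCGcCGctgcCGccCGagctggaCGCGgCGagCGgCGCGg
Whdc1 probe 4: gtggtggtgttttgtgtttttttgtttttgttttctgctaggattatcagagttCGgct
Whdc1 probe 6: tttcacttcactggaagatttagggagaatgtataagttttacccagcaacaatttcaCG
Tmem63b probe 7: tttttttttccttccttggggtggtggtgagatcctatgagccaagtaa
Centg1 probe 1: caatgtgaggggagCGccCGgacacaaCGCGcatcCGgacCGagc
Centg1 probe 6: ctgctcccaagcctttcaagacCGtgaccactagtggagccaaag
Zbtb1 probe 4: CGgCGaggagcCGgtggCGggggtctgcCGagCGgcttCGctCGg
Zbtb1 probe 9: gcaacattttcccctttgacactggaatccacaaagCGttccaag
Arcn1 probe 3: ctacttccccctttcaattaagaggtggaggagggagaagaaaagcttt
Arcn1 probe 5: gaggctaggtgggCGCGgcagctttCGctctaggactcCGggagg
Bola2 probe 4: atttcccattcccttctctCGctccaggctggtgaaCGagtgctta
Fastk probe 6: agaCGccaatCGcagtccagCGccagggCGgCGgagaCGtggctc
Whdc1 probe 3 held 10 CpG in 45 bases and Zbtb1 probe 4 held 8, while Tmem63b probe 7 and Arcn1 probe 3, also among the brightest in precipitated DNA, held 0. The low probes Whdc1 probe 6, Centg1 probe 6 and Zbtb1 probe 9 held 1 CpG each.

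RefSeq promoters, which run from 250 bases before to 50 bases after the gene's start, were matched for 6 of the 7 genes. They are shown for the genes where a probe inside the window bears on the values below, in the GRCm38.p6 build and on the strand of the gene, at chr5:24445186-24445485 (minus), chr10:127078657-127078956 (plus), chr12:76370270-76370569 (plus) and chr17:45686169-45686468 (minus). Capitals mark the bases of the array probe.
Fastk promoter window: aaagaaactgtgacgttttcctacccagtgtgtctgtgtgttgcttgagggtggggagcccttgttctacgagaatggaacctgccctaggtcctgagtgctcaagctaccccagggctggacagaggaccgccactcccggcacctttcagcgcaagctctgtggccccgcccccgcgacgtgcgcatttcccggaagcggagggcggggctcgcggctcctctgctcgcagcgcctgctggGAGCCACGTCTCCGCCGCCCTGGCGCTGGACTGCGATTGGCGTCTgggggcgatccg
Centg1 promoter window: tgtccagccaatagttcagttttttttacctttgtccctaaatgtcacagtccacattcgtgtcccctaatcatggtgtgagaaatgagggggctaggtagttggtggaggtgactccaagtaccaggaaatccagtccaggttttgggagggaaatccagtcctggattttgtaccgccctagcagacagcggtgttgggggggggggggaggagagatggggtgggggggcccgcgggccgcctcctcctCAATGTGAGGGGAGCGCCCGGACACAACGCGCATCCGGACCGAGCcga
Zbtb1 promoter window: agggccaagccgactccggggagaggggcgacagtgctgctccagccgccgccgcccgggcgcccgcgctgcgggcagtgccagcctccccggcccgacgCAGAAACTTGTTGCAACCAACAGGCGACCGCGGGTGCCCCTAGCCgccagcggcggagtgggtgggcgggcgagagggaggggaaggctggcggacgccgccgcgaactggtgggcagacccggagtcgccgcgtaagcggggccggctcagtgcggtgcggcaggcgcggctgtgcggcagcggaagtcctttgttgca
Tmem63b promoter window: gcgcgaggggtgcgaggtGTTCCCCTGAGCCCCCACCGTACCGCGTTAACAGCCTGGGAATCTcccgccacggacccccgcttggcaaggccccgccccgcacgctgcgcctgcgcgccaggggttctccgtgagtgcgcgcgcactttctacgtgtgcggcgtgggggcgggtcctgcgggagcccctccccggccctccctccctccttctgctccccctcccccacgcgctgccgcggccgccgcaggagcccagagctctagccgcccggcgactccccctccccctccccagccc
The capitals are Fastk probe 6, Centg1 probe 1 and Zbtb1 probe 1. In the Tmem63b window they mark a probe that the array names for Mrpl14, a mitochondrial ribosomal protein gene on the other side. CpG numbered 34 in the Tmem63b window, 39 in that of Zbtb1, 25 in that of Fastk, 22 in that of Bola2, 14 in that of Whdc1 and 13 in that of Centg1, beside a median of 7 over 27025 RefSeq promoters. The GC box GGGCGG, searched on both strands, was in 6 of 6 windows, and in 35.9% of all RefSeq promoters. CCAAT, likewise on both strands, was in 4 of 6, those of Whdc1, Centg1, Bola2 and Fastk, and in 37.9% of all. TATAAA and CACGTG were in 0 of 6, and in 14.2% and 7.2% of all. CACGTG reads the same on both strands, and none of the 4 motifs contains another. GC content of the 6 windows ran from 55.7% at Whdc1 to 76% at Tmem63b. The RefSeq promoters at large were not matched for it, and its part in these counts was not tested.

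Each value is the log2 ratio of precipitated over input processed signal, relative to the median probe of its array, so that 0 is the median probe and 1 is 2-fold above it. The median probe itself was at -0.91 for PRDM2 array 1, -0.80 for PRDM2 array 2 and -0.27 for H3K9me2 before that centring. A promoter value is the mean of the usable probes of a gene, and ranks are among 16164 promoters with at least 3 usable probes. Of the 44 probes 41 were usable. Whdc1 probe 5, Arcn1 probe 2 and Bola2 probe 1 were outlier spots on at least 1 array and were left out.

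Whdc1 had the highest PRDM2 mean of the 7, at rank 2. Its promoter value was 4.14 on PRDM2 array 1, 3.48 on PRDM2 array 2 and 1.55 on the H3K9me2 array, a PRDM2 mean of 3.81 ± 0.47 (SD, n = 2). The signal stood over the start and up to 765 bp downstream of it, and the last probe, at 1394 bp, was below 1 on all 3 arrays. Probe 3, at 329 bp, had 5.54, 5.65 and 2.09 on the arrays in that order. Probe 4, with a GC content of 37.3%, had 6.06, 5.12 and 3.08. Its raw spot signal was 5699 in precipitated and 355 in input DNA on PRDM2 array 1, 3254 and 450 on PRDM2 array 2, and 8046 and 783 on the H3K9me2 array. Raw signals are spot means, and the ratios of processed signals also carry background subtraction, dye normalization and centring. Probes 1 and 2, at and just after the start, had 4.37, 2.98 and 2.24, and 4.39, 4.37 and 2.47. Probe 6 had 0.35, -0.74 and -2.12, the lowest of the gene on every array. The probe left out between them, probe 5, had 2.86, 1.79 and 2.09.

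Tmem63b held the highest promoter value of PRDM2 array 1, 4.39, while PRDM2 array 2 gave 2.65 at rank 48. Its mean was 3.52 ± 1.23 (SD, n = 2), the widest spread of the 7, and the H3K9me2 value was 2.13. Probe 7, the one nearest the start at 156 bp and free of CpG, had 7.16, 5.01 and 3.77. Its raw precipitated and input signals were 13580 and 415 on PRDM2 array 1, 4146 and 666 on PRDM2 array 2 and 11582 and 706 on the H3K9me2 array. The precipitates exceeded input on all 3 arrays, and input itself lay above the median input of all probes, 161, 151 and 207 on the arrays in the same order. The arrays parted at probe 3, where PRDM2 array 1 gave 5.20, PRDM2 array 2 gave -0.29 and the H3K9me2 array gave 2.03. Probe 6 at 287 bp gave 3.96 and 3.97 on the PRDM2 arrays, with 2.22 for H3K9me2. Array 1 was the higher also at probe 4, with 6.46, 3.53 and 2.88, and at probe 5, with 4.47, 2.42 and 2.08. The outermost probes were lower, with 2.68, 2.02 and 0.19 at probe 2 and 0.78, 1.90 and 1.72 at probe 1.

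Centg1 had the closest agreement of the PRDM2 arrays, at 3.56 and 3.41, a mean of 3.49 ± 0.11 (SD, n = 2), with 1.94 for H3K9me2. Probe 1, at 24 bp from the start, had 5.77, 6.64 and 3.32. That closeness was of the promoter mean, not of its probes: probe 2 had 4.83 on PRDM2 array 1 against 0.71 on PRDM2 array 2, and 0.93 for H3K9me2. Probes 3 to 5, from 769 to 1069 bp, were high on both PRDM2 arrays and on the H3K9me2 array, with 5.30, 3.74 and 3.18 at probe 3, 2.80, 4.35 and 2.33 at probe 4 and 3.36, 4.02 and 1.57 at probe 5. Probe 6 at 1290 bp had -0.68, 0.98 and 0.32. The promoter had a GC content of 63.7%, the highest of the 7.

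Zbtb1, the gene with most usable probes (9), had 3.53 and 3.26 on PRDM2 arrays 1 and 2, a mean of 3.39 ± 0.19 (SD, n = 2), and 1.87 for H3K9me2. Probe 4 at 357 bp had 5.10, 5.12 and 2.59, and probe 9 at 1173 bp had -1.17, -0.76 and -1.83. Probe 1, 128 bp before the start, had 7.97 on PRDM2 array 2 against 2.02 on PRDM2 array 1, with 3.36 for H3K9me2. Its raw input of 36.3 on PRDM2 array 2 and 38.1 on the H3K9me2 array was not well above background. With only probes of bright input, Zbtb1 had a PRDM2 mean of 3.10 and an H3K9me2 value of 1.68. Probe 8 had 4.33 on PRDM2 array 1 and -0.16 on PRDM2 array 2, with 0.47 for H3K9me2. Between 57 and 459.5 bp from the start the gene was high on all 3 arrays, with 5.38, 4.04 and 3.24 at probe 2, 3.85, 4.84 and 3.27 at probe 3 and 3.90, 2.997 and 2.68 at probe 5. Farther on, probe 6 had 2.63, 1.69 and 0.59, and probe 7 had 5.70, 3.63 and 2.46, with raw precipitated and input signals of 7507.5 and 560.5 on PRDM2 array 1.

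Arcn1 had 3.86 and 2.82 on PRDM2 arrays 1 and 2, a mean of 3.34 ± 0.73 (SD, n = 2), and 2.17 for H3K9me2. Its probes are counted from the first. Probe 3, at 519 bp from the first probe, had 5.27, 3.25 and 3.03, with raw precipitated and input signals of 9313 and 914 on PRDM2 array 1. Probe 5 at 728 bp had 4.92, 4.10 and 2.29, and probe 6 had 3.95, 4.01 and 2.18. Probe 1 was high in 2 of 3 arrays, with 3.17 and -0.08 for PRDM2 and 3.19 for H3K9me2. Its precipitated DNA was not well above background on PRDM2 array 2. Probe 4, with a GC content of 68.9%, had 1.99, 2.84 and 0.15, so that neighbouring probes of like GC content differed within this promoter. Probe 4 was dim, though flagged well above background. Its raw precipitated and input signals were 88.7 and 68.7 on PRDM2 array 1, 100.4 and 53.8 on PRDM2 array 2, and 68.9 and 64 for H3K9me2.

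Bola2 rests on 3 usable probes, the fewest of the 7, and had the highest H3K9me2 value among them. It had 3.86 and 2.76 on PRDM2 arrays 1 and 2, a mean of 3.31 ± 0.77 (SD, n = 2), and 2.44 for H3K9me2, rank 12 of that array. Probe 4 had 5.41, 4.25 and 2.70, probe 3 had 4.42, 1.01 and 2.54, and probe 2 had 1.74, 3.04 and 2.07. The 3 H3K9me2 values lay close together, while probe 3 separated the PRDM2 arrays. The probe left out had 1.08, 3.60 and -0.47. With outlier spots kept, the H3K9me2 value of Bola2 was 1.71, under the 2.13 of Tmem63b, so its highest place rests on leaving that probe out.

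Fastk had 3.12 and 3.40 on PRDM2 arrays 1 and 2, a mean of 3.26 ± 0.20 (SD, n = 2), and 1.44 for H3K9me2, the lowest of the 7. Probe 6, which spans the start, had 7.44, 5.78 and 1.98, with raw precipitated and input signals of 3825 and 137 on PRDM2 array 1 and 596 and 79.3 on PRDM2 array 2. Probe 4 at 818 bp had 0.05 on PRDM2 array 1, 4.63 on PRDM2 array 2 and 0.32 for H3K9me2. Probe 5 had 5.22, 3.32 and 0.88, so that high PRDM2 stood beside H3K9me2 just short of 2-fold there. The other probes were lower and uneven, with 1.54, 3.99 and 2.55 at probe 3, 2.16, 2.84 and 0.81 at probe 2 and 2.27, -0.17 and 2.09 at probe 1.

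**Figure D1:**
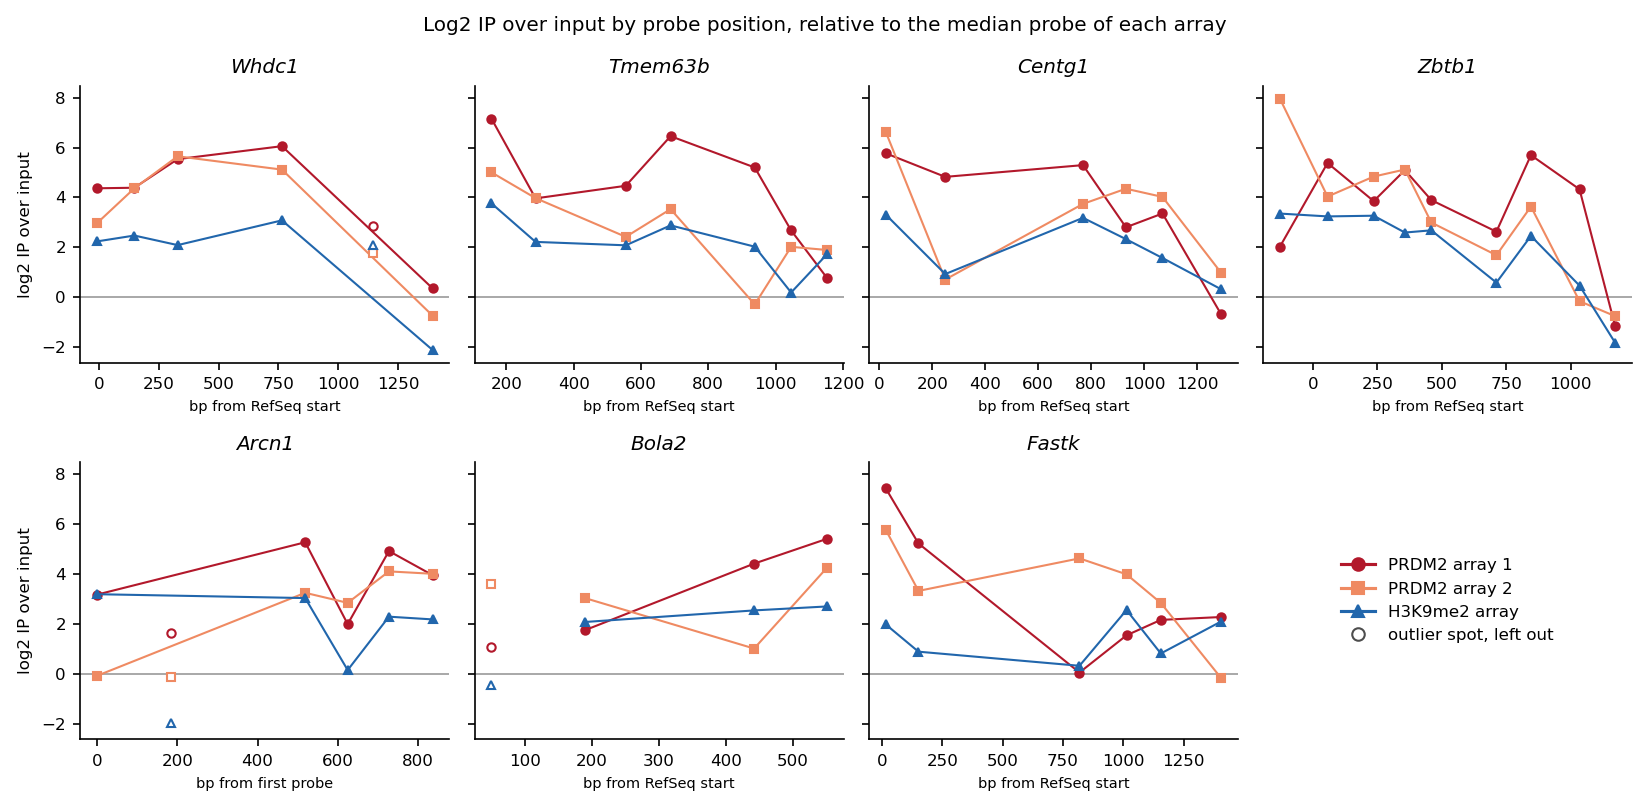
Log2 ratio of precipitated over input DNA at each probe of the 7 genes (vertical axis) against its distance in bp from the RefSeq start, or from the first probe for Arcn1 (horizontal axis); circles are PRDM2 array 1, squares PRDM2 array 2, triangles the H3K9me2 array, and open marks are outlier spots that were left out. Whdc1 and Zbtb1 drop below 1 on all 3 arrays at their last probe, and single probes such as Tmem63b at 938 bp and Fastk at 818 bp separate the PRDM2 arrays.

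Among the 7 genes the PRDM2 values ran from 3.12 to 4.39 on array 1, with a median of 3.86, and from 2.65 to 3.48 on array 2, with a median of 3.26. Over all promoters the medians were 0.57 and 0.43, and the 95th percentiles 1.725 and 1.502. The ranks on array 1 were 3 for Whdc1, 1 for Tmem63b, 12 for Centg1, 13 for Zbtb1, 6 for Arcn1, 7 for Bola2 and 27 for Fastk. On array 2 they were 5 for Whdc1, 48 for Tmem63b, 8 for Centg1, 14 for Zbtb1, 27 for Arcn1, 33 for Bola2 and 9 for Fastk. By the mean the 7 genes spanned 3.26 to 3.81, and each gene differed from the next in that order by less than the larger SD of the pair. Limma called 7 of 7 enriched at an adjusted p under 0.05, where 47.3% of all promoters were called enriched and 1.14% depleted; the choice of genes fixed that count.

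**Figure D2:**
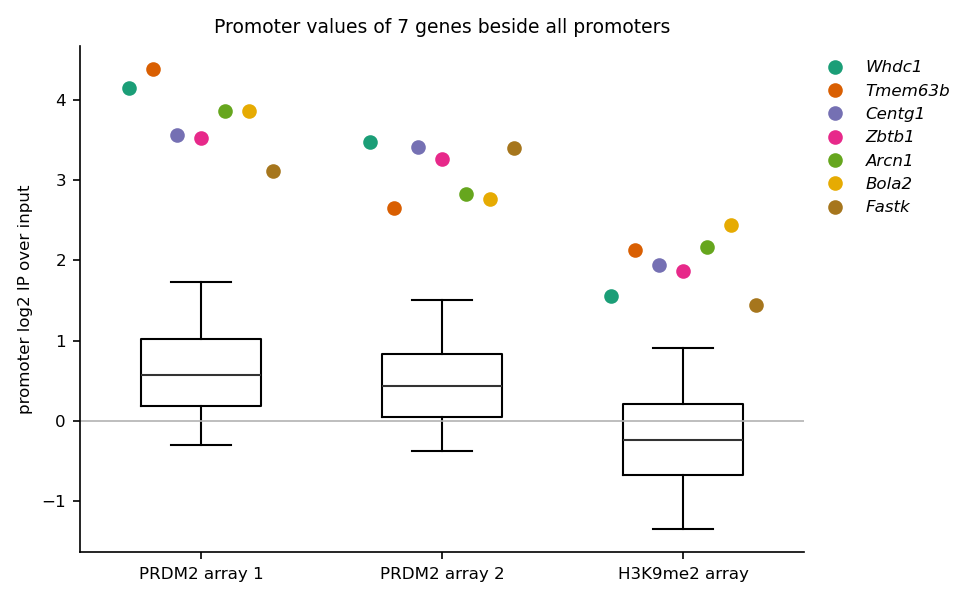
Promoter log2 ratio of precipitated over input DNA (vertical axis) of the 7 genes as coloured points on PRDM2 array 1, PRDM2 array 2 and the H3K9me2 array, beside all 16164 promoters as boxes (middle 50% and median) with whiskers at the 5th and 95th percentiles. Every gene lies above the upper whisker on all 3 arrays, and Tmem63b is the highest point on PRDM2 array 1 and the lowest of the 7 on PRDM2 array 2.

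Of the 41 probes 31 (75.6%) were at least 2-fold above the median probe on both PRDM2 arrays, a share that was 20.5% of all probes; the PRDM2 signal that chose the genes sets this count. The remaining 10 probes show that the signal was not even along a promoter. On array 1 36 probes passed 2-fold and 2 lay below 0, and on array 2 33 passed and 6 lay below 0. The 41 probes differed more between the PRDM2 arrays than probes at large, with a median absolute difference of 1.34 against 0.66. They differed by over 2 on the log2 scale at 14 of 41 probes, and among all probes at 13.7%. Array 1 was higher at 24 probes and array 2 at 17. Over these probes the PRDM2 arrays correlated at r = 0.42 and rho = 0.46 (n = 41 probes of 7 genes that share their arrays), beside r = 0.65 over all probes. The choice of genes by PRDM2 bears on these differences and correlations, and the probes at large were not matched for signal level. The same probe was the highest on both PRDM2 arrays in 4 of 7 genes, near the 46.9% of the 3816 promoters with 3 to 9 usable probes.

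H3K9me2, which the choice did not use, was also high. Its promoter values ran from 1.44 at Fastk to 2.44 at Bola2, with a median of 1.94, where all promoters had a median of -0.24 and a 95th percentile of 0.91. In order of rank on that array stood Bola2 (12), Arcn1 (24), Tmem63b (27), Centg1 (48), Zbtb1 (61), Whdc1 (137) and Fastk (200). At least 2-fold above the median probe were 7 of 7, beside 4.04% of all promoters. With loess 4 of the 7 remained past 2-fold, and with the GC trend removed 5. Over all promoters the H3K9me2 values correlated with the PRDM2 arrays at r = 0.51 and 0.46, so the H3K9me2 values are not independent of the PRDM2 signal. Of the other 93 promoters among the 100 highest PRDM2 means, 53 (57.0%) passed 2-fold for H3K9me2, with a median of 1.05. In the 348 other promoters within the GC range of the 7 genes, 67 passed (19.2%), with a median of 0.50, and among 3809 others with 3 to 9 usable probes 7.56% passed. With 1 array these shares have no error across replicates.

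Probe by probe, 30 of 41 (73.2%) passed 2-fold on the H3K9me2 array, where 30.1% of all probes did, and 26 of 41 (63.4%) on all 3 arrays, where 14.7% did. Of the 31 probes past 2-fold on both PRDM2 arrays, 26 (83.9%) passed for H3K9me2, beside 71.7% of all such probes. The H3K9me2 values of the 41 probes correlated with PRDM2 array 1 at r = 0.65 and rho = 0.54, and with PRDM2 array 2 at r = 0.59 and rho = 0.56. Probes of all genes gave 0.59 and 0.52. Such points share their arrays and the base composition of their probes, so the correlations are descriptions.

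PRDM2 stood above H3K9me2 on the scale of each array's own median probe at all 7 genes. The difference of PRDM2 mean and H3K9me2 was 2.25 at Whdc1, 1.82 at Fastk, 1.54 at Centg1, 1.52 at Zbtb1, 1.39 at Tmem63b, 1.18 at Arcn1 and 0.87 at Bola2, with a median of 1.52. All promoters had a median difference of 0.85. The choice of genes by PRDM2 and not by H3K9me2 bears on these differences, so they are descriptions. The scale sets the sign: with normexp background correction the median difference of the 7 genes was -0.45.

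**Figure D3:**
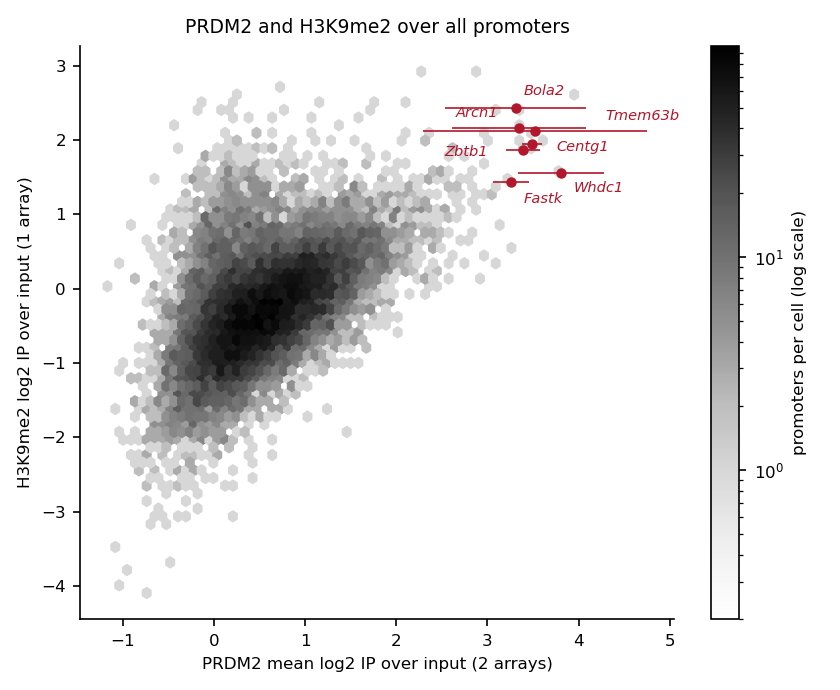
H3K9me2 log2 ratio of 1 array (vertical axis) against the mean PRDM2 log2 ratio of 2 arrays (horizontal axis) for all 16164 promoters, as grey cells shaded by the number of promoters on a log scale, with the 7 genes in red and bars of the SD of 2 arrays. The 7 genes lie at the right edge between 1.44 and 2.44 on the H3K9me2 axis.

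The 7 promoters were rich in G and C. Their GC content was 57% at Whdc1, 54.4% at Tmem63b, 63.7% at Centg1, 54.8% at Zbtb1, 57.6% at Arcn1, 52.9% at Bola2 and 54.8% at Fastk, beside a median of 43.9% over all promoters, which placed each at or above the 97.8th percentile. PRDM2 signal was higher where GC content was higher over the whole array, at r = 0.59 over all probes and r = 0.45 over the 41 (rho = 0.47), as the plot against GC content shows. Of the 20 probes with a GC content of 60% or more, 19 passed 2-fold on both PRDM2 arrays, where 87.5% of all such probes did. Below 45%, 4 of 9 passed, where 6.92% of all such probes did. Those 4 were Whdc1 probe 4, Tmem63b probe 7, Zbtb1 probe 5 and Arcn1 probe 3. The PRDM2 signal that chose the genes bears on both counts, so they are descriptions only. After removal of each array's GC trend, the median promoter value of the 7 genes was 2.00 and 1.32 on the PRDM2 arrays and 1.26 on the H3K9me2 array. By gene the PRDM2 mean then ran from 0.68 at Centg1 to 2.05 at Whdc1. The part of base composition in the values above was not tested beyond that removal.

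**Figure D4:**
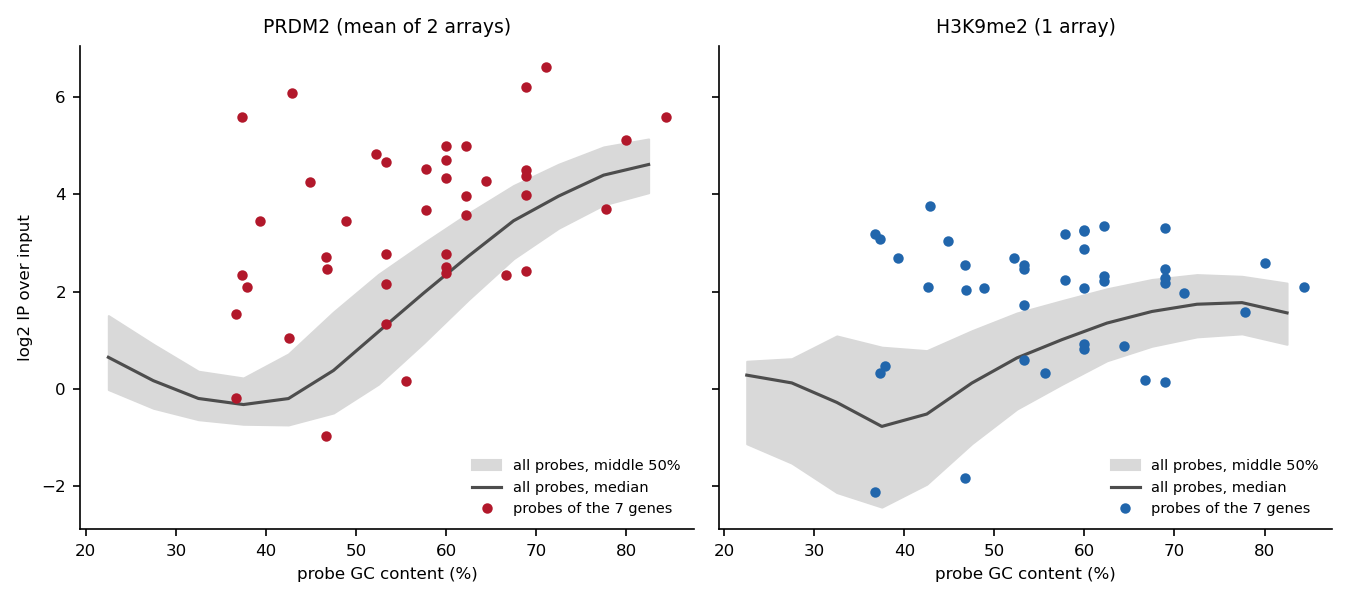
Log2 ratio of precipitated over input DNA (vertical axes) against probe GC content in % (horizontal axes) for the 41 usable probes of the 7 genes as points, with the median of all probes as a line and their middle 50% as a band; PRDM2 mean of 2 arrays on the left, H3K9me2 on the right. The median of all probes is higher at high GC content on both sides, and among the probes of the 7 genes under 45% GC, Whdc1 probe 4 and Tmem63b probe 7 stand at 5.59 and 6.09 for PRDM2.

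The array covered these genes with few probes, 3 to 9 usable ones over 546 to 1454 bp, where the median promoter had 15. Only 23.6% of promoters had 9 or fewer, but 70 of the 100 highest PRDM2 means did. Where a start could be placed, 34 of 36 usable probes of 6 genes lay downstream of it, beside 45.9% of the probes of 9823 promoters. In the 500 bp after the start the 14 probes of the 6 genes had medians of 4.96 and 4.20 on the PRDM2 arrays and 2.51 for H3K9me2. Over all promoters that stretch held the highest medians, 1.05 and 1.18 for PRDM2 and 0.58 for H3K9me2. From 500 to 1000 bp the 6 genes still had 5.25, 3.69 and 2.39, where all promoters had -0.03, 0 and -0.11. From 1000 to 1500 bp they had 1.85, 1.44 and 0.64. Median GC content of the probes in these stretches, in order, was 61.1%, 52.8% and 53.3% at the 6 genes. Over all promoters it was 51.1%, 42.3% and 40%. The choice of genes by PRDM2 bears on their PRDM2 medians, and the part of GC content was not tested.

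All promoters were also ranked by the stretch from the start to 1500 bp downstream alone, where the 6 genes have 3 to 8 usable probes. Among 9186 promoters with such probes, the PRDM2 mean placed all 6 lower than among all promoters, with Whdc1 at 10, Tmem63b at 20, Centg1 at 27, Bola2 at 48, Fastk at 56 and Zbtb1 at 66. H3K9me2 placed Bola2 at 2, Tmem63b at 17, Centg1 at 44, Zbtb1 at 106, Fastk at 241 and Whdc1 at 291. All 6 stayed past 2-fold for H3K9me2, as did 8.45% of those promoters.

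The nearest named promoters had lower PRDM2 means than the genes beside them, from -0.01 to 0.68. The median of all promoters was 0.50, and the choice of the 7 genes by PRDM2 sets this contrast. Mrpl14, whose probes begin 320 bp from those of Tmem63b, had a PRDM2 mean of 0.60 ± 0.10 (SD, n = 2) and an H3K9me2 value of -0.04. Tmem63b probe 7 had 7.16, 5.01 and 3.77, against 1.57, 2.79 and 1.23 at the Mrpl14 probe inside the Tmem63b window, 368 bp away. That Mrpl14 probe was thus past 2-fold on all 3 arrays. GC content was 42.9% at the Tmem63b probe and 62.2% at the Mrpl14 probe. Giyd2, a structure-specific endonuclease gene 294 bp from Bola2, had 0.68 ± 0.41 for PRDM2 and -1.63 for H3K9me2. The facing probes, 479 bp apart, had 1.74, 3.04 and 2.07 at Bola2 and -1.81, -1.71 and -3.20 at Giyd2. GC content was 60% at the Bola2 probe and 44.7% at the Giyd2 probe. The facing probes of Fastk, Zbtb1, Centg1 and Whdc1 were likewise richer in GC than those of their neighbours. Tmub1, 1160 bp from Fastk, had 0.19 ± 0.43, and Zbtb25, 1397 bp from Zbtb1 and of the same family, had -0.01 ± 0.33. Farther off, Fsd2 near Whdc1 and Tspan31 near Centg1 had 0.07 ± 0.19 and 0.43 ± 0.08. Limma called Mrpl14 and Giyd2 enriched and the other 4 neighbours not, where 47.3% of all promoters were called. For Arcn1 the nearest promoter within 10000 bp was that of a predicted gene and is passed over.

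Above the lowest of the 7 genes stood 4 other promoters. They were a predicted gene of 3 probes at 3.995 ± 0.60, rank 1 of all promoters and with input well above background at 2 of the 3, the Polycomb gene Pcgf2 at 3.60 ± 0.44 and rank 3, Cdkn2a, which encodes cell cycle inhibitors, at 3.39 ± 0.75 and the potassium channel gene Kcna7 at 3.37 ± 0.37 (SD, n = 2). Input at Cdkn2a was well above background at 7 and 10 of 22 probes on the PRDM2 arrays. Pcgf2 and Kcna7 had bright input at every probe and are outside the 7 genes for a reason not given with the choice. Next below Fastk were Nol9, a kinase gene of ribosomal RNA processing, at 3.24 ± 0.35, the class I histocompatibility gene H2-K1 at 3.11 ± 1.498 and Wfdc6b at 3.11 ± 0.83, with 1 predicted gene between Nol9 and H2-K1 passed over. The H3K9me2 values of Nol9 and Wfdc6b were 0.55 and 0.84, under that of each of the 7 genes. Those of the predicted gene at rank 1, Pcgf2, Cdkn2a, Kcna7 and H2-K1 were 2.59, 2.03, 1.90, 1.96 and 2.45. High H3K9me2 was thus not particular to the 7 genes among promoters of like PRDM2 mean. The gap between Fastk and Nol9 was smaller than the SD of either.

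By Euclidean distance over the 3 arrays to the mean of the 7 genes, the most alike promoters were Kcna7 (0.15), Pcgf2 (0.24), Zfy1 (0.68), Rasip1 (0.72) and H2-Bl (0.94), with 1 predicted gene passed over. The 7 genes themselves lay at 0.30 to 0.88. Input signal of 3 of them lay outside the range of the 7 genes. That of Zfy1, on the Y chromosome, lay at the 0.13th and 0.15th percentile of promoters on the PRDM2 arrays, that of Rasip1 at the 15.5th and 14.8th, and that of H2-Bl at the 99.8th and 99.95th. Input of the 7 genes lay between the 29.7th percentile, at Whdc1, and the 94.8th on the PRDM2 arrays. Their precipitated signal lay at or above the 99.5th on those arrays.

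Relatives of the 7 genes in function or family did not reach the PRDM2 level of the 7. The choice of the 7 genes by their PRDM2 means sets that contrast. Over 7 lists, 89 of 151 related promoters (58.9%) were enriched by limma at an adjusted p under 0.05 and 5 were depleted. Among all promoters 47.3% were enriched and 1.14% depleted. By list the enriched share ran from 30% to 84.2%. The lowest of the 7 genes had 3.26, while the median of these relatives was 0.69 and that of all promoters 0.50. H3K9me2 passed 2-fold at 2 of 151, Centb1 and Centd2, beside 4.04% of all promoters. These calls depend on the processing: 11 of the 151 were enriched with the median over probes, 0 with normexp, and 38 with the median promoter as 0, where 15 were depleted. No list had a test of its own.

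Among the cytoskeletal relatives of Whdc1, of 23 WASP family and Arp2/3 promoters 19 were enriched (82.6%, beside 47.3% of all promoters) and 0 depleted, with a median of 0.97. Abi1, a subunit of the WAVE complex, had 1.30 and 1.92 on the PRDM2 arrays and 0.75 for H3K9me2. Actr2, the Arp2 subunit itself, had 1.69 and 1.17, and 0.59 for H3K9me2. Arpc5l, another subunit, was lowest at 0.21 ± 0.12 and was not called (limma, adjusted p = 0.405). Of 19 ArfGAP promoters, the relatives of Centg1, 16 were enriched (84.2%) and 0 depleted, with a median of 0.94. Centb1, now Acap1, had 1.51 ± 0.48 and Centb5, now Acap3, 1.38 ± 0.18 (SD, n = 2). Arfgap1, which acts on Arf1 at the Golgi, had 0.14 ± 0.20 and was not called (limma, adjusted p = 0.585).

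Of 34 promoters of ZBTB and related zinc finger repressors 21 were enriched (61.8%) and 0 depleted, with a median of 0.75. Zbtb17, which encodes the Myc partner Miz-1, had 2.87 and 1.85 on the PRDM2 arrays, with a mean of 2.36 ± 0.72, the highest of all relatives, and 0.71 for H3K9me2. Zbtb7a stood at 1.86 ± 0.02 and Zbtb5 at -0.21 ± 0.08. Of 13 promoters of TMEM63, TMC and other channels 7 were enriched (53.8%) and 1 depleted, with a median of 0.54. Tmc8 and Tmc6, members of the same channel-like family, had 1.46 ± 0.10 and 1.41 ± 0.12, and Tmc1, a channel of inner ear hair cells, was depleted at -0.54 ± 0.18 (limma, adjusted p = 0.0435). Tmem63a, the closest relative named, had 0.88 ± 0.09 and was enriched (limma, adjusted p = 0.00364), while Tmem63c had 0.38 ± 0.48 and was not called (adjusted p = 0.178 by limma). Tmem63a and Tmem63c were picked after their values were seen, as were Centd2 and Polrmt.

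The vesicle coat and iron-sulfur lists had shares of calls near the 47.3% of all promoters. Of 20 COPI and ARF promoters 9 were enriched (45%) and 1 depleted, with a median of 0.52. Copz2, the zeta subunit variant of the coat, had 1.65 ± 0.58 and the retrieval receptor Kdelr1 1.61 ± 0.58, while Copa, the alpha subunit, was depleted at -0.67 ± 0.03 (limma, adjusted p = 0.0153). Of 22 BOLA and iron-sulfur promoters 11 were enriched (50%) and 1 depleted, with a median of 0.55. The co-chaperone Hscb had 1.57 ± 0.86 and the electron carrier Ciapin1 1.15 ± 0.18, while Nfs1, the cysteine desulfurase, was depleted at -0.76 ± 0.82 (limma, adjusted p = 0.0277). Of 20 FASTK family and mitochondrial RNA promoters 6 were enriched (30%) and 2 depleted, with a median of 0.14. Mterfd1, a mitochondrial termination factor relative, had 1.34 ± 0.46 and Fastkd3 1.12 ± 0.96, while the transcription factor Tfb2m and the polymerase Polrmt were depleted at -0.91 ± 0.09 and -0.62 ± 0.34 (limma, adjusted p = 0.00294 and 0.0282).

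**Figure D5:**
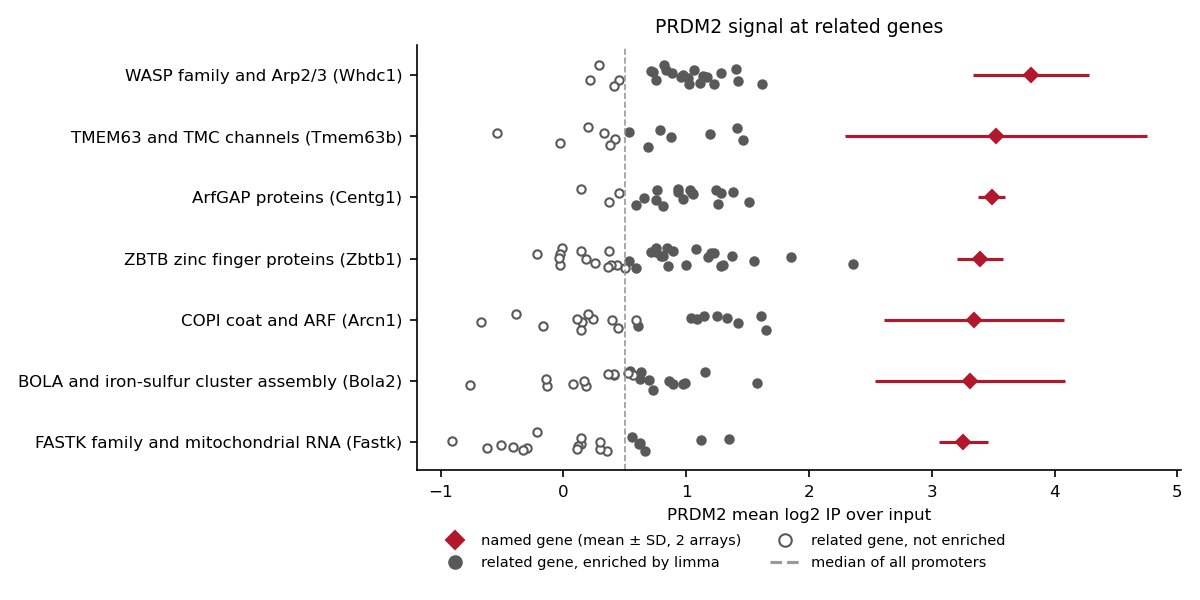
Mean PRDM2 log2 ratio of precipitated over input DNA (horizontal axis) of the 7 genes as red diamonds with the SD of 2 arrays and of 151 related promoters as circles, filled where limma called them enriched, in 7 lists (vertical axis), beside the median of all promoters as a dashed line. Every diamond lies above 3, which the choice of the 7 genes by PRDM2 sets, and the highest relative, Zbtb17, lies at 2.36.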

How the data were processed

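The data were 3 Agilent 2-colour arrays, and the members and the lists of related genes were chosen with earlier results of these data known. The processed intensities were deposited as made by Agilent Feature Extraction 10.5.1.1, which per the file headers subtracted background, removed spatial trends, scaled the dyes linearly and gave dim spots a surrogate value; raw intensities were spot means. Flags of each spot (other columns, of 0 or 1) and a log10 ratio of red over green processed signal were also deposited, the second used only as a check. A deposited value table by the authors, on a log2 scale by comparison with the scanner values, served as an alternative; its tool and centring, like the genome build of the array design, were not stated in the sources used here.

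Per probe, log2 of red (precipitated) over green (input) processed signal was centred on the array's median probe. The 1094 probes flagged as outliers on any array (0.461%) were left out on all. Probes of 1 gene name, split at gaps over 10000 bp, formed 16483 promoters, of which 16164 had at least 3 usable probes. PRDM2 was tested against 0 with limma 3.58.1 (lmFit, eBayes) in R 4.3.3 over all promoters, with Benjamini-Hochberg adjustment at 0.05; the fit was tested on simulated data. All 7 gene names were matched in RefSeq tables. Distances from a start come from exact matches of probes to RefSeq promoters (GRCm38.p6) and the design's spacing; no coordinate was converted. Named besides the 7 genes were the nearest named promoter within 10000 bp, the promoters above and the 3 next below the lowest of the 7, the 5 most alike, and the 2 highest and the lowest of each list, with predicted genes passed over. Figures and tables used Python 3.11.15, numpy 2.4.6, pandas 2.3.3, matplotlib 3.10.9 and, in R, data.table at version 1.17.8. Alternatives were the median over probes, normexp background correction with an offset of 50, loess with a span of 0.3, GC trend removal in 20 classes, the median promoter as 0, bright input only, saturated spots left out, at least 5 probes, the value table and each PRDM2 array alone; outlier spots kept and the 1500 bp after the start were added after the data were seen.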

Additional observations from a re-analysis of the deposited data

How the results depend on the processing

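The median PRDM2 mean of the 7 genes (3.39) was 1.58 with normexp, 1.52 with loess, 1.84 with the GC trend removed and 2.89 with the median promoter as 0, and 3.26 to 3.86 with a PRDM2 array left out. The median H3K9me2 value (1.94) was 2.24 with the median over probes, 1.16 with loess, 1.26 with the GC trend removed, 2.18 with the median promoter as 0 and 1.71 with outlier spots kept. The median of PRDM2 minus H3K9me2 (1.52) turned to -0.45 with normexp and was 0.34 with loess, 0.53 with the GC trend removed and 0.79 with the median promoter as 0; each PRDM2 array alone gave 1.39 to 1.67. The share of probes past 2-fold on both PRDM2 arrays (75.6%) was 39% with normexp and with the GC trend removed and 48.8% with loess, and 80.5% to 87.8% on a PRDM2 array alone. That for H3K9me2 (73.2%) was 80.5% with normexp and with the median promoter as 0, 56.1% with loess and 51.2% with the GC trend removed. Limma's 7639 enriched promoters became 884 with the median over probes, 3470 with loess (1226 depleted), 2919 with the GC trend removed (263) and 2769 with the median promoter as 0 (2095). With normexp limma called 0 at an adjusted and 1512 at an unadjusted p under 0.05, none of the 7 genes among the adjusted calls. The 89 related promoters became 11, 30, 23 and 38 in the same settings and 0 with normexp. With normexp no gene lost 2-fold for H3K9me2, while 4 of 7 kept it with loess and 5 with the GC trend removed; 4 and 5 then stood among the 100 highest PRDM2 means, and all 7 under normexp. The cause of these shifts was not tested. Bright input only, the value table and saturated spots left out moved the medians and shares by less than the spread of the PRDM2 arrays. The H3K9me2 array has no spread of its own, so that of PRDM2 was the yardstick there too. The counts moved by less than 1.5 times (the value table gave 6612 enriched promoters and 83 related ones). Limma could not be fitted with a PRDM2 array left out. No paired analysis was possible because the H3K9me2 array carries no replicate number, so that the groups share fewer than 2. By the spot flags, input was not well above background at 1 of the 41 probes. Input that passed the flag could still be low. At Whdc1 probe 3 raw input was 56.3 on PRDM2 array 2. The median on that array was 191.6 over the 41 probes and 151 over all probes. The number of arrays limits every value.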
